A study of Mus musculus with 18 samples.

Results

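The genes described here are *Txnip*, *Arrdc4*, *Mlxipl*, *Mlx* and *Pklr*, genes of the cell's response to glucose, read in isolated mouse pancreatic islets on Affymetrix Mouse Gene ST arrays. They were listed by name, and each was read from the single transcript cluster (the probes that stand for 1 gene) that the platform annotation gives to it alone. They are 5 of the 22180 genes with a cluster of their own, and all 5 passed the filter on dim genes, which 15526 genes passed. At 6 weeks the obese islets came from C57BL/KsJ db/db mice, set against C57BL/KsJ control mice (lean KsJ), and from C57BL/6J ob/ob mice, set against C57BL/6J control mice (lean 6J). The same 4 kinds of mice were sampled at 16 weeks. The db allele disables the long form of the leptin receptor and the ob allele disables leptin itself, in every tissue and from birth, so both models overeat and become obese. The larger value table held 2 arrays for each of these 8 groups, and a smaller table held 1 further db/db array and 1 further lean KsJ array of 16 weeks, called replicate 3. Islets were picked by hand, and the labels give neither the sex nor the number of the mice behind an array, nor the genotype of the controls beyond the word control. P-values therefore measure the spread between these arrays only, which may be technical.

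The transcription factor ChREBP, encoded by *Mlxipl*, and its relative MondoA, encoded by *Mlxip*, are activated by glucose metabolites. Each binds DNA together with Mlx at carbohydrate response elements, which consist of a pair of E-box-like half-sites with a short spacer. *Txnip* and *Arrdc4* encode alpha-arrestins that restrain glucose uptake, and Txnip also binds and inhibits thioredoxin. Both genes are textbook targets of this factor pair, and in beta cells a high level of Txnip is known to accompany high glucose and to promote cell death. *Pklr* encodes the liver and red cell pyruvate kinase, the last enzyme of glycolysis, and is the classic ChREBP target of liver.

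The sequence just before a transcription start of each gene is shown because the values of *Txnip* and *Arrdc4* ran together across the arrays and both are known targets of the factors that *Mlxipl* and *Mlx* encode. RefSeq's promoter table (GRCm38.p6) matched 5 of the 5 genes, and the 250 bases before the start are printed in the direction of transcription. Capitals mark the E-box letters CACGTG, the paired half-sites 5 bases apart and the CCAAT box, which is CCAAT or, on the opposite strand, ATTGG. *Pklr* and *Mlxipl* each have a second start in the table. For *Pklr* the second start, 481 bases downstream of the first, is shown because it holds the paired half-sites, and for *Mlxipl* the first is shown. The start that the table gives for *Mlx* lies 583 bases inside the gene's outer start given further down, and the *Pklr* start shown lies 501 bases inside. Both of these windows are thus within their genes.
Txnip, chr3:96557707-96557956, plus strand: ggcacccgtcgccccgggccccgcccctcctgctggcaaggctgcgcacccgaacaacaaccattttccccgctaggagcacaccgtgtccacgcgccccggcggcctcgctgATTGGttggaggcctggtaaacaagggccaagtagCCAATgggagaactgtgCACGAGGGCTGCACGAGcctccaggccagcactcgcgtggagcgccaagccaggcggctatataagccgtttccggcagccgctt
Arrdc4, chr7:68749239-68749488, minus strand: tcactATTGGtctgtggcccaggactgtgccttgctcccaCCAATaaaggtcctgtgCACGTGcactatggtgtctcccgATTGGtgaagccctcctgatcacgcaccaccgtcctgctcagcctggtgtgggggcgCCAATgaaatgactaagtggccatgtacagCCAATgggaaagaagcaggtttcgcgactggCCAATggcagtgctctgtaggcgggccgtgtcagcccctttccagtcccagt
Mlxipl, chr5:135089640-135089889, plus strand: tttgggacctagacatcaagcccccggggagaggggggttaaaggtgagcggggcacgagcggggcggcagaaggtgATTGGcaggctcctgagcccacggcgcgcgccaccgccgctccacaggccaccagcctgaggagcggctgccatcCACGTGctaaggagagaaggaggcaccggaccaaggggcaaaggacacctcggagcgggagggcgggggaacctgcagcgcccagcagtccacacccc
Mlx, chr11:101087040-101087289, plus strand: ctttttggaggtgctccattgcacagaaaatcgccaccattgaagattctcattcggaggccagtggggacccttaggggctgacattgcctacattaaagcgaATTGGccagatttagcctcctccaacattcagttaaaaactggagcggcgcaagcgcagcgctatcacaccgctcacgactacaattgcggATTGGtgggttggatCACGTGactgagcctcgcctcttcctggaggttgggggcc
Pklr, chr3:89136373-89136622, plus strand: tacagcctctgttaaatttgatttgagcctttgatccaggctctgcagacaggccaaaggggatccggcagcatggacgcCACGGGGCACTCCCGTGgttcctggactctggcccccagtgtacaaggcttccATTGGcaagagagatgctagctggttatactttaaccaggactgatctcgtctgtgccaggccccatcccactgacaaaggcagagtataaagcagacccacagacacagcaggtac

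The genes themselves lie at chr3:96557957-96561857 (*Txnip*), chr7:68736994-68749238 (*Arrdc4*), chr5:135089890-135139768 (*Mlxipl*), chr11:101086707-101092207 (*Mlx*) and chr3:89136122-89146815 (*Pklr*). The paired half-sites were searched as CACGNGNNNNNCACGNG, CACGNGNNNNNCNCGTG, CNCGTGNNNNNCNCGTG and CNCGTGNNNNNCACGNG, which covers both strands. They were found in 24 of 32851 windows of the same length (0.0731%), from 27025 genes. *Txnip* holds the pair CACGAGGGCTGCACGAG from 85 to 69 bases before its start, and the second *Pklr* start holds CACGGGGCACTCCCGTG from 170 to 154 bases before it. The window of *Arrdc4* holds no such pair but 1 CACGTG, from 193 to 188 bases before the start, and CACGTG also stands in the windows of *Mlxipl* (98 to 93) and *Mlx* (40 to 35). CACGTG was present in 6.02% of all windows. *Arrdc4* carries 6 CCAAT boxes, and 0.0578% of windows hold 6 or more. *Txnip* and *Mlx* carry 2 each, which 10.1% of windows reach. The letters were chosen with these sequences and the known element in view, so the matches describe the windows and are not evidence of binding.

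The islets were checked against marker genes before the values were read. The beta cell markers averaged 10.67 to 11.56 on the log2 scale over the 16 arrays of the larger table (9 of 10 markers measured), with the amylin gene *Iapp* highest on every array. Marker levels of neighbouring tissues varied within groups. Acinar markers (10 of 14 measured) averaged 12.30 on lean KsJ 16-week replicate 2, against 7.73 to 11.05 on the other arrays of the larger table. Enterocyte markers (12 of 12 measured) averaged 10.89 on lean 6J 6-week replicate 2, 9.30 and 6.66 on the db/db 16-week replicates 2 and 1, and 6.09 or less on the other 13 arrays. The differences of the 5 genes in comparisons that use 16-week db/db or lean KsJ islets or 6-week lean 6J islets, and the gene list counts in 16-week db/db islets, rest in part on 3 doubted arrays, lean KsJ 16-week replicate 2, lean 6J 6-week replicate 2 and db/db 16-week replicate 2. The main ones are also given without these arrays, an alternative chosen after seeing the data. In such bulk islets fewer cells of a type and less RNA per cell cannot be told apart. The labels do not give sex, and the Y-linked gene *Uty* was high on 5 arrays, both lean KsJ replicates 1, lean 6J 6-week replicate 1 and both ob/ob 6-week arrays, and on no db/db array.

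*Txnip* and *Arrdc4* were higher in 16-week db/db islets than in lean KsJ islets, 3.11-fold and 5.56-fold, and neither passed the test in the other comparisons of obese with lean islets. *Mlx* was higher on every obese array than on every lean array in the deposited values, though not after rescaling of the arrays, and its differences did not pass the test. The *Mlxipl* differences were negative in all 4 comparisons of obese with lean islets, and those of *Pklr* had opposite signs in the obese models at 16 weeks, and none of these passed the test. In 16-week db/db islets 2 of the 5 genes were called, both higher, against 5.8% of the 15526 genes tested (5.32% higher and 0.477% lower). The 5 genes were chosen with earlier results of these data known, so the share is given as a description. A gene was called at a limma adjusted p below 0.05. The plot of array values by group shows all 18 values of each gene.

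**Figure D1:**
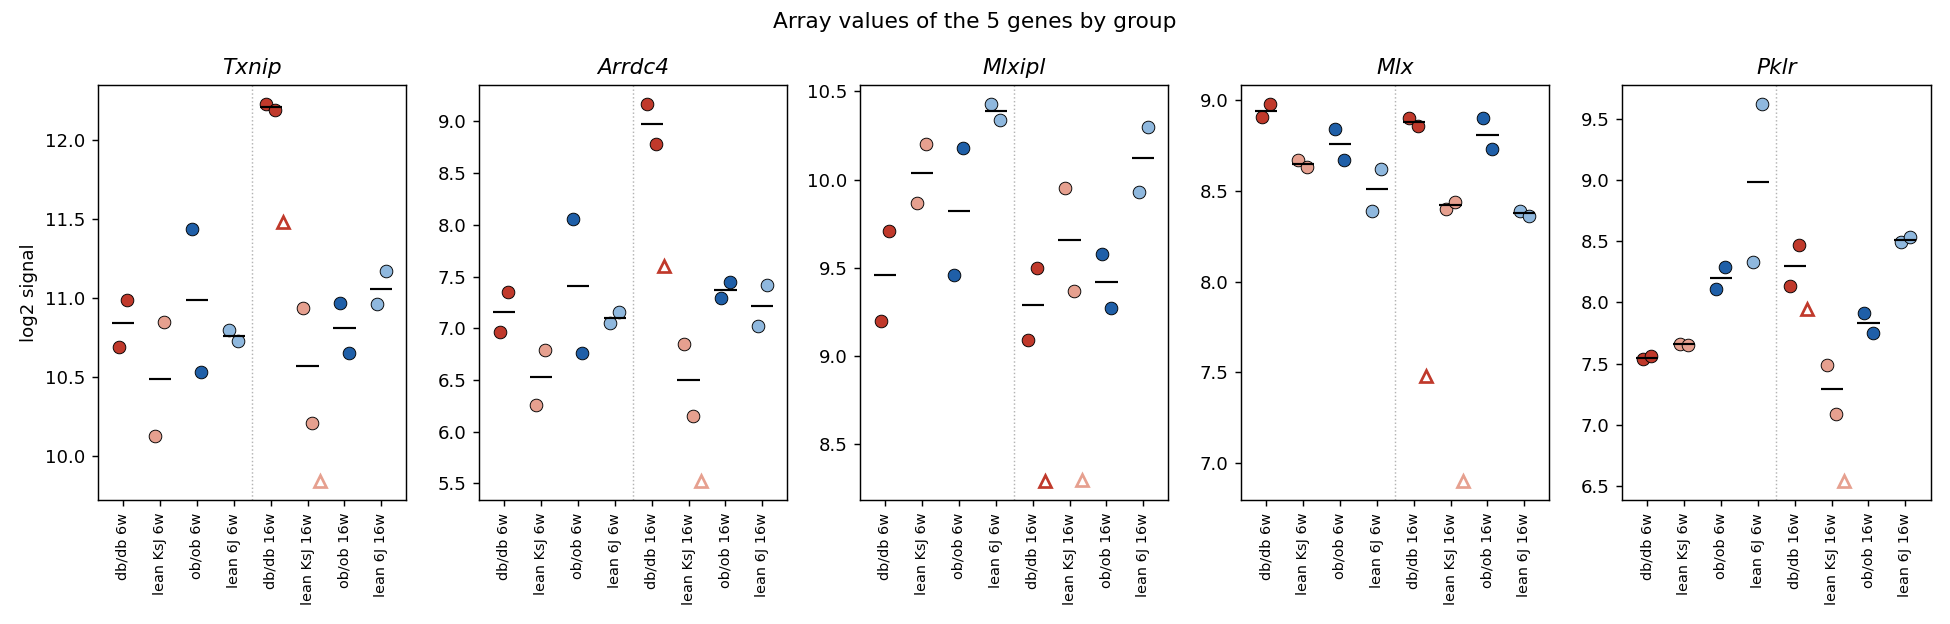
Log2 signal of each gene on every array, by group, at 6 weeks left and 16 weeks right of the dotted line. Circles are the 16 arrays of the larger table, bars are group means of 2 arrays, and triangles are the 2 arrays of the smaller table, whose level is not set against the circles. The 16-week db/db circles of *Txnip* (12.19 and 12.23) and *Arrdc4* (8.78 and 9.17) lie above all other circles of those genes.

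*Txnip* stood at 12.23 and 12.19 in 16-week db/db islets, against 10.94 and 10.21 in lean KsJ islets of that age. At 6 weeks it was at 10.69 and 10.99 in db/db islets, against 10.13 and 10.85 in lean KsJ islets. The 16-week db/db arrays did not overlap any other group, while at 6 weeks the db/db and lean KsJ arrays overlapped. In ob/ob islets *Txnip* was at 11.44 and 10.53 at 6 weeks, against 10.80 and 10.73 in lean 6J islets. At 16 weeks it was at 10.97 and 10.65 in ob/ob islets, against 10.96 and 11.17 in lean 6J islets. Both ob/ob comparisons overlapped, and the 6-week ob/ob arrays lay 0.91 apart, more than the arrays of any other group. All 14 arrays outside the 16-week db/db group ranged from 10.13 to 11.44. Such a separation of the 16-week db/db arrays from the other 14 was seen for 310 of the genes tested (2%).

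The db/db difference in *Txnip* at 16 weeks was 1.64 ± 0.33 on the log2 scale (SE, 2 arrays per group, limma adjusted p = 0.0258). The group means in order were db/db 16 weeks (12.21), lean 6J 16 weeks (11.06), ob/ob 6 weeks (10.99), db/db 6 weeks (10.84), ob/ob 16 weeks (10.81), lean 6J 6 weeks (10.76), lean KsJ 16 weeks (10.57) and lean KsJ 6 weeks (10.49). Only the step from the first to the next group, 1.15, was larger than the pooled SD between arrays of a group, 0.36, and the next 7 groups were spaced by 0.03 to 0.19. The differences in the remaining obese groups were 0.35 ± 0.33 in db/db islets at 6 weeks (SE, limma adjusted p = 0.81), 0.22 ± 0.33 in ob/ob islets at 6 weeks (0.937) and -0.26 ± 0.33 in ob/ob islets at 16 weeks (0.762). The call in 16-week db/db islets was lost without db/db replicate 1 (1.62, limma adjusted p = 0.104), without db/db replicate 2 (1.66, 0.103), without lean KsJ replicate 2 (1.27, 0.0999) and without the 3 doubted arrays (1.29, 0.192). With acinar and enterocyte means added as covariates it was 1.71 (0.0318), and with *Xist*, a gene of the female inactive X chromosome, as a covariate 1.61 (0.0292). The call was also lost under quantile normalization (1.40, 0.0676) and median centring (1.30, 0.0619), which moved the median of all genes tested in this comparison by -0.22 and -0.34 from 0.18.

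*Arrdc4* stood at 9.17 and 8.78 in 16-week db/db islets, against 6.85 and 6.15 in lean KsJ islets, and no other array of the larger table was above 8.06. At 6 weeks it was at 6.96 and 7.35 in db/db islets, against 6.26 and 6.79 in lean KsJ islets. Both db/db arrays thus lay above both lean KsJ arrays at 6 weeks too, as 21.9% of the genes tested did. In ob/ob islets it was at 8.06 and 6.76 at 6 weeks, against 7.05 and 7.16 in lean 6J islets. At 16 weeks it was at 7.29 and 7.45 in ob/ob islets, against 7.02 and 7.42 in lean 6J islets. The ob/ob arrays overlapped the lean 6J arrays at both ages.

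The difference in *Arrdc4* was 2.47 ± 0.39 in 16-week db/db islets (SE, 2 arrays per group, limma adjusted p = 0.0136), which ranked 96 among the 15526 differences from the most positive down, with *Txnip* at 334 and *Pklr* at 1102. It was 0.63 ± 0.39 in 6-week db/db islets (SE, limma adjusted p = 0.682), 0.31 ± 0.39 in 6-week ob/ob islets (0.917) and 0.14 ± 0.39 in 16-week ob/ob islets (0.904). In the order of group means 16-week db/db islets (8.97) were followed by 6-week ob/ob islets (7.41), a step of 1.56 against a pooled SD of 0.43. The next 5 groups lay within 7.41 to 7.10, and both lean KsJ groups were lowest at 6.53 and 6.50. The call in 16-week db/db islets held under quantile normalization (2.13, limma adjusted p = 0.0323) and median centring (2.13, 0.031). It was lost without db/db replicate 1 (2.28, 0.0663), db/db replicate 2 (2.67, 0.0545), lean KsJ replicate 2 (2.13, 0.0629) or the 3 doubted arrays (2.32, 0.112). It was 2.53 (0.0218) with acinar and enterocyte means added as covariates and 2.44 (0.0157) with *Xist* as a covariate. Macrophage markers (6 of 6 measured) averaged 6.67 and 6.47 on the db/db arrays, against 5.74 and 5.09 on the lean KsJ arrays, and beta cell markers 10.67 and 10.82, against 11.25 and 10.76. The part of these cells in the *Txnip* and *Arrdc4* results was not tested.

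*Txnip* and *Arrdc4* were also compared array by array. Over the 16 arrays of the larger table their log2 values had a Pearson r of 0.96 and a Spearman rho of 0.80, given as a description, since arrays of a group share strain, age and genotype. The difference between replicate 1 and replicate 2 had the same sign for both genes in 6 of 8 groups, as it had for *Txnip* and *Mlxipl* in 6 of 8, and for *Txnip* with *Mlx* or *Pklr* in 4 of 8 each. In 6-week ob/ob islets it was 0.91 for *Txnip* and 1.30 for *Arrdc4*, and in 16-week lean KsJ islets 0.73 and 0.69. In both of these groups the array with more *Txnip* was the one with more *Arrdc4*. The corresponding r with *Txnip* was 0.30 for *Pklr*, 0.37 for *Mlx* and -0.31 for *Mlxipl*.

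**Figure D2:**
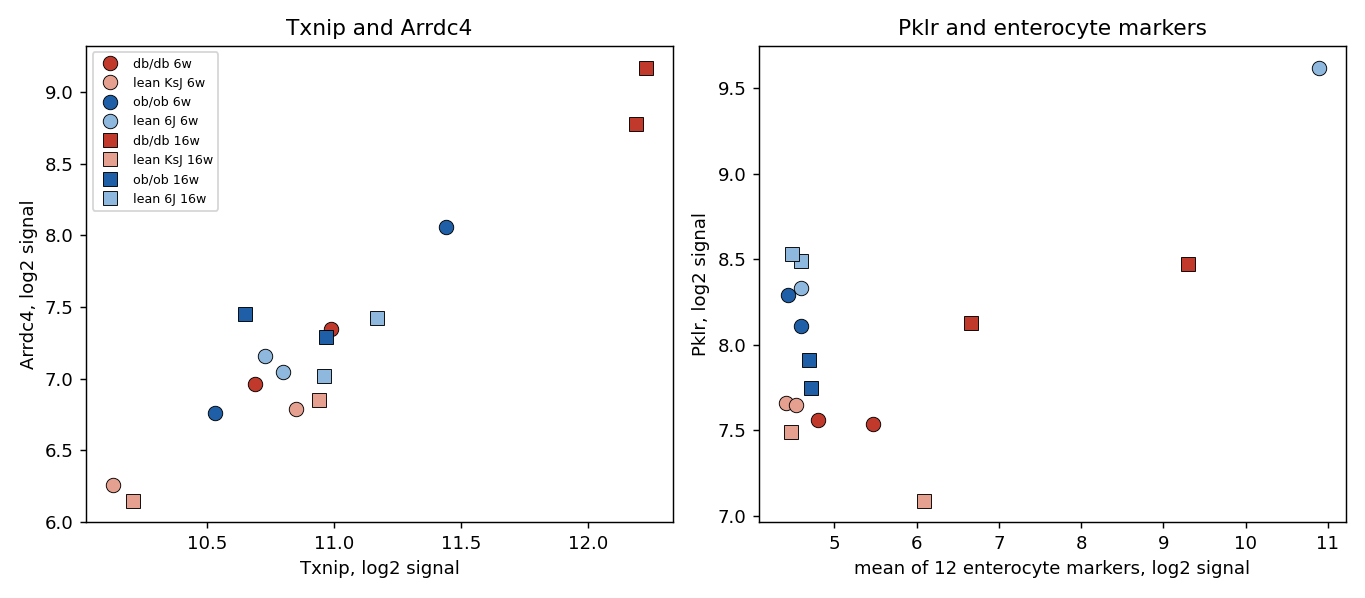
Left, log2 signal of *Arrdc4* against *Txnip* on the 16 arrays of the larger table; circles are 6-week and squares 16-week arrays, coloured by group. Both 16-week db/db squares lie at the upper right, apart from the rest. Right, log2 signal of *Pklr* against the mean of the 12 enterocyte markers on the same arrays; lean 6J 6-week replicate 2 has the highest value on both axes (10.89 for the markers and 9.62 for *Pklr*).

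No difference in the genes of the factors themselves passed the test. *Mlxipl*, encoding ChREBP, stood at 9.09 and 9.50 in 16-week db/db islets, against 9.95 and 9.37 in lean KsJ islets, which overlapped. At 6 weeks it was at 9.20 and 9.71 in db/db islets, against 9.87 and 10.20 in lean KsJ islets. In ob/ob islets it was at 9.46 and 10.18 at 6 weeks, against 10.43 and 10.34 in lean 6J islets, and at 9.58 and 9.27 at 16 weeks, against 9.93 and 10.30. In 3 of the 4 comparisons both obese arrays lay below both lean arrays. A share of 27.9% of genes did so in db/db islets at 6 weeks, 16.8% in ob/ob islets at 6 weeks and 33.3% in ob/ob islets at 16 weeks, and 10.4% in db/db islets at 16 weeks, where the *Mlxipl* arrays overlapped. Of the 8 obese arrays, 3 lay below every lean array in the deposited values, 5 under quantile normalization and 7 under median centring. In the deposited values all 8 did so for 0.142% of the genes tested, and the shares for fewer arrays were not counted. The *Mlxipl* differences were -0.37 ± 0.30 in 16-week db/db islets (SE, limma adjusted p = 0.479), -0.58 ± 0.30 in 6-week db/db islets (0.629), -0.56 ± 0.30 in 6-week ob/ob islets (0.791) and -0.69 ± 0.30 in 16-week ob/ob islets (0.28). Without the 3 doubted arrays the 16-week db/db value was -0.86 (limma adjusted p = 0.287).

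*Mlx*, the shared binding partner, stood at 8.90 and 8.86 in 16-week db/db islets, against 8.40 and 8.44 in lean KsJ islets. At 6 weeks it was at 8.91 and 8.98 in db/db islets, against 8.67 and 8.63 in lean KsJ islets. In ob/ob islets it was at 8.84 and 8.67 at 6 weeks, against 8.39 and 8.62 in lean 6J islets, and at 8.90 and 8.73 at 16 weeks, against 8.39 and 8.36. All 8 obese arrays lay above all 8 lean arrays, although the lowest obese and the highest lean array both rounded to 8.67. Such a separation was seen for 122 of the genes tested (0.786%), and within the single comparisons 21.9% (db/db, 6 weeks), 32.8% (db/db, 16 weeks), 19.9% (ob/ob, 6 weeks) and 28.2% (ob/ob, 16 weeks) of genes had both obese arrays above both lean arrays. It held for 7 of 8 obese arrays under quantile normalization and for 4 of 8 under median centring. The *Mlx* differences were 0.46 ± 0.15 in 16-week db/db islets (SE, limma adjusted p = 0.0959), 0.30 ± 0.15 in 6-week db/db islets (0.625), 0.25 ± 0.15 in 6-week ob/ob islets (0.799) and 0.44 ± 0.15 in 16-week ob/ob islets (0.19). The 16-week db/db value was 0.19 under quantile normalization and 0.11 under median centring, so its size rested on the scaling, and 0.50 without the 3 doubted arrays (limma adjusted p = 0.212).

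*Pklr*, the liver and red cell pyruvate kinase, had differences of opposite sign in the obese models at 16 weeks. It stood at 8.13 and 8.47 in 16-week db/db islets, against 7.49 and 7.09 in lean KsJ islets. The 16-week ob/ob values were 7.91 and 7.75, against lean 6J values of 8.49 and 8.53. Both db/db arrays thus lay above both lean arrays, as did 32.8% of the genes tested, and both ob/ob arrays lay below both lean arrays, as did 33.3%. At 6 weeks it was at 7.54 and 7.56 in db/db islets, against 7.66 and 7.65 in lean KsJ islets. The 6-week ob/ob values were 8.11 and 8.29, against lean 6J values of 8.33 and 9.62. The value of 9.62 was the highest of all arrays and belonged to lean 6J replicate 2, the array with the highest enterocyte markers.

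The *Pklr* difference was 1.01 ± 0.33 in 16-week db/db islets (SE, 2 arrays per group, limma adjusted p = 0.0923) and -0.68 ± 0.33 in 16-week ob/ob islets (0.328). It was -0.11 ± 0.33 in 6-week db/db islets (0.96) and -0.78 ± 0.33 in 6-week ob/ob islets (0.791), the last being -0.13 without lean 6J replicate 2 and -1.42 without lean 6J replicate 1 (limma adjusted p = 0.00834). In 16-week db/db islets it was 0.64 without the 3 doubted arrays (limma adjusted p = 0.147) and 0.53 with acinar and enterocyte means added as covariates (0.131). It passed the test in 4 of the 29 alternatives, among them both tables joined (1.15, limma adjusted p = 0.0157). The further db/db array joined there had enterocyte markers of 9.49, against 4.37 on the further lean KsJ array. The difference was 1.01 without either lean 6J 6-week array. It was 1.21 without lean KsJ 16-week replicate 1, which leaves only the acinar-rich replicate 2 in that group. The enterocyte markers averaged 6.66 and 9.30 on the db/db arrays, against 4.48 and 6.09 on the lean KsJ arrays, and all 12 had a positive difference, with 1 of 12 called. The hepatocyte markers, 8 of 8 measured, averaged 5.42 to 5.84 on all 16 arrays. The part of these cells in the *Pklr* values was not tested. Among lean islets *Pklr* averaged 8.98 in 6J and 7.66 in KsJ islets at 6 weeks, and 8.51 in 6J and 7.29 in KsJ islets at 16 weeks, differences of 1.32 and 1.22. The titles of all KsJ arrays in the larger table carry lower serial numbers than those of the 6J arrays, and anything these numbers mark is confounded with strain and cannot be told apart from it.

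**Figure D3:**
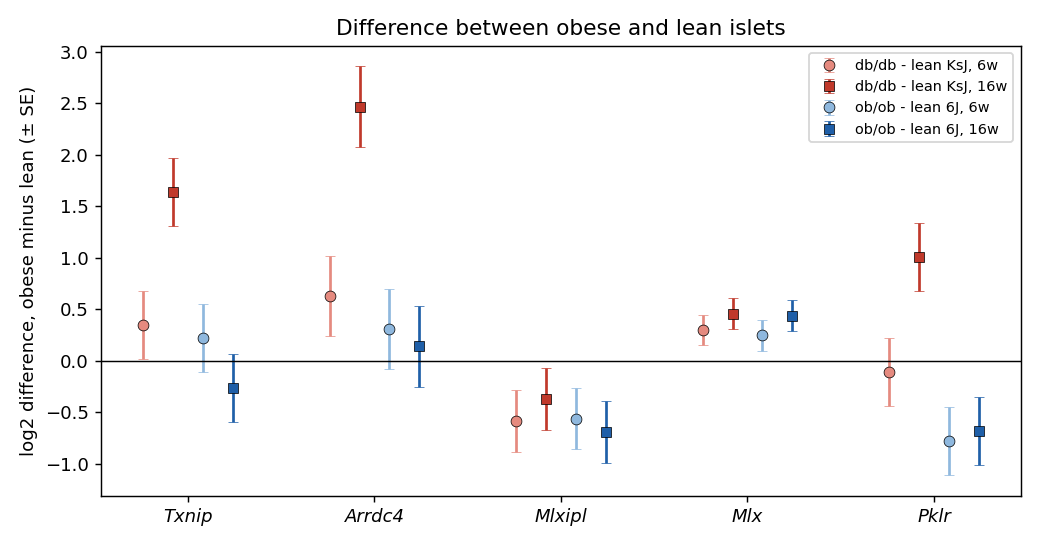
Log2 difference between obese and lean islets (obese minus lean, points) with its standard error (bars) for each gene, with db/db in red, ob/ob in blue, 6 weeks as circles and 16 weeks as squares. *Txnip* (1.64) and *Arrdc4* (2.47) stand out in 16-week db/db islets, and *Pklr* lies above 0 there (1.01) and below 0 in 16-week ob/ob islets (-0.68).

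The difference between the models was tested directly. At 16 weeks the db/db difference minus the ob/ob difference was 2.33 ± 0.55 for *Arrdc4* (SE, limma adjusted p = 0.153), 1.90 ± 0.47 for *Txnip* (0.166), 1.70 ± 0.46 for *Pklr* (0.176), 0.32 ± 0.43 for *Mlxipl* (0.704) and 0.02 ± 0.21 for *Mlx* (0.966). None of the 5 was called, where 0.0129% of all genes were called. At an unadjusted p below 0.05 there were 3 of the 5, and 2415 of all 15526 genes tested. Leaving out lean KsJ 16-week replicate 1 gave the highest values of the 29 alternatives, 2.26 for *Txnip*, 2.68 for *Arrdc4* and 1.89 for *Pklr*. That fit rests on replicate 2, the doubted acinar-rich array, as the only lean KsJ array of 16 weeks. Over all 29 the values ran from 1.5 to 2.26 for *Txnip* (limma adjusted p 0.0103 to 0.438), from 1.92 to 2.68 for *Arrdc4* (0.0117 to 0.428) and from 1.06 to 1.89 for *Pklr* (0.0266 to 0.454). Without the 3 doubted arrays they were 1.55 for *Txnip* (0.393), 2.18 for *Arrdc4* (0.332) and 1.33 for *Pklr* (0.11). At 6 weeks none of the 5 was called and none had an unadjusted p below 0.05. Of all genes 0% were called, and 349 had an unadjusted p below 0.05. For *Txnip* and *Arrdc4*, which passed the test in db/db and not in ob/ob islets, a difference between the models was thus not shown with all arrays.

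Within db/db islets the difference between 16 and 6 weeks was 1.37 for *Txnip* (limma adjusted p = 0.224), 1.82 for *Arrdc4* (0.15) and 0.75 for *Pklr* (0.632). None of the 5 genes was called, where 0.0644% of all genes were called (0.0386% lower). At an unadjusted p below 0.05 there were 3 of the 5, and 1182 of all 15526 genes tested. *Arrdc4* passed that test without either ob/ob 6-week array (1.82, limma adjusted p = 0.037), and without the 3 doubted arrays it did not (2.01, 0.135), nor did *Txnip* (1.39, 0.186) or *Pklr* (0.58, 0.183). The db/db difference at 16 weeks minus that at 6 weeks was 1.85 ± 0.55 for *Arrdc4* (SE, limma adjusted p = 0.361), 1.29 ± 0.47 for *Txnip* (0.364) and 1.12 ± 0.46 for *Pklr* (0.367), where 0.00644% of all genes were called. Without lean KsJ 16-week replicate 1, which leaves only the acinar-rich replicate 2 in that group, it was 2.19 for *Arrdc4* and 1.66 for *Txnip*. Without the 3 doubted arrays it was 1.69 for *Arrdc4* and 0.94 for *Txnip*. Lean KsJ, ob/ob and lean 6J islets had 0 of 5 genes called between 16 and 6 weeks by limma, 0 of 5 at an unadjusted p below 0.05, and 0% of all genes called. Of all 15526 genes tested 4081, 605 and 445 had an unadjusted p below 0.05 in lean KsJ, ob/ob and lean 6J islets. The largest of the 15 changes of the 5 genes was 0.46.

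Part of a wider list of ChREBP target genes was higher in 16-week db/db than in lean KsJ islets. The list held 40 genes of liver and islet, of which 36 were measured and 35 tested. In 16-week db/db islets 5 of 35 were called higher than in lean KsJ islets and none lower, against 5.32% and 0.477% of all genes tested. *Txnip* and *Arrdc4* are among the 5, so the count is not separate from their results above. At an unadjusted p below 0.05 there were 18 of 35, 14 higher and 4 lower, against 3811 of all 15526 genes tested. In all 23 had a positive difference, and the median difference was 0.73 against 0.18 over all genes tested. Besides *Txnip* and *Arrdc4* these were *Ppp1r3c*, a glycogen-targeting subunit of protein phosphatase 1 (1.85 ± 0.41, SE, limma adjusted p = 0.0299), *Pnpla3*, a lipid droplet hydrolase (1.63 ± 0.33, 0.0256), and *Klf10*, a transcriptional repressor (1.52 ± 0.33, 0.0293). *Klf10* was at 7.65 and 8.42 in db/db islets, against 6.96 and 6.07 in lean KsJ islets. *Pnpla3* was at 5.86 and 5.82, against 4.37 and 4.05, and *Ppp1r3c* at 6.29 and 6.47, against 5.35 and 3.72. The db/db arrays lay above the lean arrays for all 3, as for 32.8% of the genes tested, and for each the lower lean array was replicate 2, the one with the highest acinar markers.

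The best-known lipid synthesis targets of ChREBP did not pass the test in 16-week db/db islets. *Fasn*, the fatty acid synthase, differed by 0.12 ± 0.20 (SE), *Acaca*, acetyl-CoA carboxylase, by -0.16 ± 0.28 and *Acly*, ATP citrate lyase, by 0.27 ± 0.23. *Scd1*, stearoyl-CoA desaturase, differed by -0.21 with an SE of 0.93, so its change was poorly measured. *Elovl6*, a fatty acid elongase, differed by 0.94 (limma adjusted p = 0.147), *Rgs16*, a regulator of G protein signalling, by 1.35 (0.085) and *Fgf21*, a metabolic hormone, by -0.32 (0.817). *Slc2a2*, the glucose transporter of beta cells and of hepatocytes, was at 11.03 and 11.30 in db/db islets, against 12.60 and 11.83 in lean KsJ islets (-1.05 ± 0.38, SE, limma adjusted p = 0.121). In 16-week ob/ob islets it differed by -0.90 (0.267). Both obese groups lay below their lean groups, as did 10.4% of the genes tested in db/db and 33.3% in ob/ob islets. None of these genes was called.

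Among ob/ob islets of 16 weeks 0 of 35 ChREBP target genes were called by limma, 6 had an unadjusted p below 0.05, and the median difference was -0.18 against -0.03 over all genes tested. The share of all genes called in that comparison was 0.0708% (0.058% lower), and 2570 of all 15526 genes had an unadjusted p below 0.05. At 6 weeks 0 of 35 were called in db/db islets (0.0258% of all genes) and 0 of 35 in ob/ob islets (0%), with medians of -0.05 and -0.16. At an unadjusted p below 0.05 there were 1 and 3 list genes, against 1323 and 955 of all 15526 genes. In 16-week db/db islets no list gene was called without the 3 doubted arrays (median 0.24 against 0.15 over all genes), while 7 rose and 1 fell with acinar and enterocyte means added as covariates (median 0.19, the same as over all genes). The number called was 0 without db/db replicate 1, db/db replicate 2 or lean KsJ replicate 2, 14 higher and 6 lower without lean KsJ replicate 1, and 1 under quantile normalization or median centring. Leaving out lean KsJ replicate 1 leaves replicate 2, the array with the highest acinar markers, as the only lean KsJ array of that age. Some of the ChREBP targets, *Pklr* and the fructose transporter gene *Slc2a5* among them, are also expressed by enterocytes. The 6-week lean 6J group holds the enterocyte-rich replicate 2. In lean 6J islets *Slc2a5* averaged 10.36 at 6 weeks and 10.36 at 16 weeks, and *Pklr* 8.98 and 8.51. The part of enterocytes in the list counts was not tested.

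**Figure D4:**
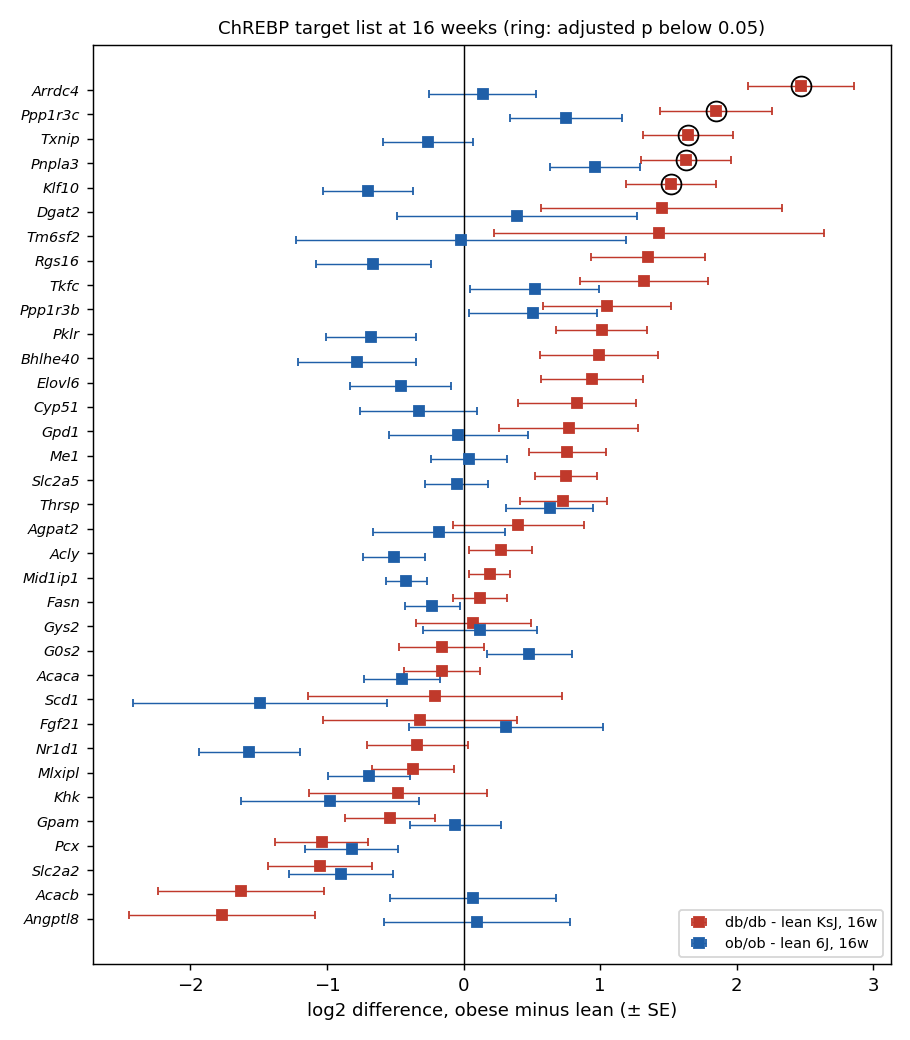
Log2 difference between obese and lean islets at 16 weeks (squares, with SE bars) for the 35 ChREBP target genes tested, db/db in red and ob/ob in blue, sorted by the db/db value. Rings mark the 5 genes called in db/db islets, from *Arrdc4* (2.47) to *Klf10* (1.52), and no ob/ob square is ringed.

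Among Txnip and its relatives and partners, 4 of 13 genes tested were called higher in 16-week db/db than in lean KsJ islets, and none lower. Of all genes tested 5.8% were called and 5.32% were called higher. At an unadjusted p below 0.05 there were 7 higher and 1 lower, against 3811 of all 15526 genes. The median was 0.59 against 0.18 over all genes. The genes called were *Txnip* and *Arrdc4*, already described, with *Nedd4l*, a ubiquitin ligase of the Nedd4 family, and *Txnrd1*, the cytosolic thioredoxin reductase. *Nedd4l* was at 8.96 and 9.26 in db/db islets, against 8.45 and 7.90 in lean KsJ islets (0.94 ± 0.20, SE, limma adjusted p = 0.0287). *Txnrd1* was at 9.40 and 9.07, against 8.67 and 8.06 (0.87 ± 0.20, 0.0356). For both genes the db/db arrays lay above the lean KsJ arrays, as for 32.8% of the genes tested. From 6 to 16 weeks *Nedd4l* changed by 0.11 in db/db and -0.73 in lean KsJ islets, and *Txnrd1* by 0.30 and -0.78. None of these changes was called, and the medians over all genes were -0.01 and -0.26. *Arrdc3*, a further alpha-arrestin, differed by 0.90 (limma adjusted p = 0.10) and *Txn1*, thioredoxin itself, by 0.42 (0.691). Of the same genes 0 of 13 in 16-week ob/ob islets were called by limma, and the median was -0.07. An unadjusted p below 0.05 was reached by 2 of them and by 2570 of all 15526 genes. Of the 4 called in db/db islets, 0 were called without the 3 doubted arrays and 1 under quantile normalization or median centring.

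Of the Mondo and Max network, the family of leucine zipper factors to which ChREBP, MondoA and Mlx belong, 0 of 12 genes tested were called in 16-week db/db islets by limma, with 2 at an unadjusted p below 0.05, a median of -0.05 and 5.8% of all genes called. *Mlxip*, encoding MondoA, was at 7.83 and 8.25 in db/db islets, against 7.88 and 8.59 in lean KsJ islets (-0.19, limma adjusted p = 0.685). In 16-week ob/ob islets 0 of 12 were called, 4 had an unadjusted p below 0.05, and the median was -0.20. Of the glucose entry and glycolysis genes, 0 of 18 tested were called in 16-week db/db islets, and 5 had an unadjusted p below 0.05. Their median was 0.31, against 0.18 over all genes tested, and after median centring it was -0.03, against -0.16. Of the 18, *Pkm*, the muscle-type pyruvate kinase, differed by 0.29 (limma adjusted p = 0.361) and *G6pc2*, the islet glucose-6-phosphatase, by 0.37 (0.295). *Ins2*, an insulin gene, differed by 0.24 (0.371). For ob/ob islets of 16 weeks 0 of 18 were called, with 5 at an unadjusted p below 0.05 and a median of -0.05. Of all 15526 genes 3811 had an unadjusted p below 0.05 in 16-week db/db islets and 2570 in 16-week ob/ob islets.

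The genes whose log2 values followed those of the 5 genes most closely over the 16 arrays were taken by Pearson r, as a description without a test. After *Arrdc4*, those most like *Txnip* were *Irs2*, an insulin receptor substrate (r = 0.88), and *Sorcs2*, a sorting receptor (0.87). After *Txnip*, those most like *Arrdc4* were *Dcdc2a* (0.90) and *Scarf2* (0.89). Spearman rho was 0.86 for *Irs2* and 0.67 for *Sorcs2* with *Txnip*, and 0.92 for *Dcdc2a* and 0.77 for *Scarf2* with *Arrdc4*. Each of these genes was higher on both 16-week db/db arrays than on the other 14 arrays, as were 2% of the genes tested. Their r thus rests in part on that group. *Mlxipl* was followed by *Ppox*, a haem synthesis enzyme, *Stard4*, a sterol carrier, and *Trim7* (0.91 each). *Mlx* was followed by *Sec13*, a coat protein of vesicle transport (0.94), *Osgin1* (0.92) and *Slc46a3* (0.91). *Pklr* was followed by *Pfkp*, the platelet phosphofructokinase (0.94), *Enpep*, glutamyl aminopeptidase (0.93), and *Prxl2a* (0.92).

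The paired half-sites of *Txnip* and *Pklr* were looked up in all genes. Of 23 genes with a window holding the pair, 16 were tested. In 16-week db/db islets 3 of these were called higher and none lower, *Txnip*, *Man2b2*, a lysosomal mannosidase (0.87, limma adjusted p = 0.0197), and *Nfkb2*, a subunit of NF-kappaB (1.17, 0.035), where 5.32% of all genes tested rose and 0.477% fell. The letters were chosen with the *Txnip* sequence in view, so this count is not separate from the *Txnip* result. The median of the 16 was 0.32 against 0.18 over all genes tested, and 14 of 16 were positive. None was called without the 3 doubted arrays (median 0.31 against 0.15), without db/db replicate 1, db/db replicate 2 or lean KsJ replicate 2, or under quantile normalization or median centring, and 8 were without lean KsJ replicate 1. Leaving out lean KsJ replicate 1 leaves the acinar-rich replicate 2 as the only lean KsJ array of that age. Among ob/ob islets of 16 weeks 0 of 16 were called by limma, and the median was -0.02 against -0.03. An unadjusted p below 0.05 was reached there by 2 of the 16 and by 2570 of all 15526 genes. *Arrdc4*, which has no such pair in its window, had the largest difference of the 5 genes.

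The 2 arrays of the smaller table, 1 per group and without a test, gave differences of the same sign as the larger table for all 5 genes. *Txnip* was at 11.48 on the db/db array, against 9.84 on the lean KsJ array, a difference of 1.64. *Arrdc4* was at 7.60, against 5.52, a difference of 2.08. *Pklr* was at 7.95, against 6.54, *Mlx* at 7.48, against 6.90, and *Mlxipl* at 8.29, against 8.30. The differences of *Arrdc4*, *Txnip* and *Pklr* stood at the 98.8, 98 and 97.2 percentile of all genes tested, whose median was 0.09. The ChREBP target list had a median of 0.65 there, with 24 of 35 positive. Enterocyte markers averaged 9.49 on this db/db array, against 4.37 on the lean array, and acinar markers 11.08, against 12.14. Their part in the result was not tested.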

How the data were processed

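RNA of hand-picked islets was measured on 18 arrays. The authors deposited log2 signals per transcript cluster in 2 tables from different array designs. MAS5, RMA and Partek are named in the submitters' processing notes, with version and role not given in the sources used here. Of the 41034 clusters in either table, 23521 carry 1 gene in the platform annotation, 1814 carry several and 15699 are not listed. Symbols were brought up to date by Entrez ID (GRCm38.p6). A gene was read from its own cluster of highest mean, and array medians of the larger table lay between 3.51 and 3.83.

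Dim genes, under the 30th percentile of mean signal (log2 2.99), were left out. The 16 arrays of the larger table entered 1 model with a mean for each group (limma 3.58.1 in R 4.3.3), which leaves 8 residual degrees of freedom that all groups share. Two-sided p-values were adjusted over the 15526 genes tested (Benjamini-Hochberg), and precision is limited by having 2 arrays a group. The 12 comparisons were obese with lean islets at each age, 16 with 6 weeks in each kind of mouse, and the differences between these. The smaller table has 1 array per group and no test. The 5 genes, the lists and the markers were chosen with earlier results of these data known. Genes named were the 5, a fixed set of 16 related genes where measured, up to 5 called genes per list and direction with the smallest p, the highest marker of a list, and the 3 genes of highest Pearson r with each of the 5, without predicted genes. *Slc2a5*, *Man2b2*, *Nfkb2*, *Uty* and *Xist* were chosen after their values were seen. Replicate numbers follow accession order and pair nothing. The fit was tested on simulated data with known changes. Alternatives were other filters, scalings and variance models, array weights, the compared groups alone, both tables joined and each array left out, and 3 added after seeing the data. Promoter windows were searched in Python 3.11.15, and figures were drawn with matplotlib 3.10.9.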

Additional observations from a re-analysis of the deposited data

Results flagged for a closer look

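*Pklr* drew attention because its arrays were separated in opposite directions in the obese models at 16 weeks. Both db/db arrays lay above both lean KsJ arrays, as did 32.8% of the genes tested, and both ob/ob arrays lay below both lean 6J arrays, as did 33.3%. Neither difference passed the test (limma adjusted p = 0.0923 in db/db and 0.328 in ob/ob islets). The db/db difference minus the ob/ob difference was 1.70 on the log2 scale, which did not pass the test of the difference itself (limma adjusted p = 0.176). With acinar and enterocyte means added as covariates the db/db difference was 0.53 and the ob/ob difference -0.53.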

How the results depend on the processing

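Each of 35 gene differences and 12 counts of called genes was recomputed under 29 alternatives, 16 of which left out 1 array each and 3 of which were chosen after seeing the data (without the 3 arrays rich in acinar or enterocyte markers, with both marker means as covariates, and with *Xist* as a covariate). Of the gene results, 961 kept their direction and their side of the threshold, 15 lost a call, 17 gained one and 22 changed sign. With 1 array left in a group, that array is assumed to vary like the other groups. No paired analysis was possible because the replicate numbers only name arrays in accession order. The depth of an array cannot be read from these values.

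The number of the 5 genes called in 16-week db/db islets, 2, was 1 under quantile normalization and under median centring, 0 with array weights and with the compared groups alone, 4 with both tables joined, 0 without the 3 marker-rich arrays, and 0 to 3 with 1 array left out. Of the 29 alternatives, *Txnip* kept its call there in 20, with values of 1.61 to 2.01 (1.27 to 1.66 in the 9 that lost it), and *Arrdc4* in 23, with 2.13 to 2.82 (2.13 to 2.67 in the 6 that lost it). For *Txnip* the limma adjusted p was 0.0523 without moderated variances, 0.345 with array weights and 0.366 with the compared groups alone, and for *Arrdc4* 0.0355, 0.288 and 0.211. In 16-week ob/ob islets the count, 0, was 2 with array weights and 1 with the compared groups alone. With 1 array left out the count ranged from 0 to 1 in 6-week ob/ob islets, 0 to 3 for the db/db minus ob/ob difference at 16 weeks, 0 to 1 for db/db islets and for lean 6J islets between the ages, and 0 to 2 for the change of the db/db difference with age; the arrays concerned were lean 6J 6-week replicate 1, lean KsJ 16-week replicate 1, and either ob/ob 6-week array.

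Signs changed only for differences that had not passed the test. For db/db minus ob/ob at 16 weeks, *Mlxipl* was -0.07 under median centring and -0.17 without the 3 arrays, and *Mlx* was -0.29 under quantile normalization, -0.37 under median centring, -0.03 with the marker means as covariates, -0.03 with *Xist* as a covariate and -0.06 to 0.11 with 1 array left out. For the change of the db/db difference with age, *Mlxipl* was -0.03 under quantile normalization, -0.16 under median centring, -0.28 without the 3 arrays and -0.07 to 0.50 with 1 array left out, and *Mlx* was -0.15 and -0.21 under the same scalings. For db/db islets between the ages *Mlxipl* was 0.04 with the marker means as covariates and -0.42 to 0.10 with 1 array left out. With 1 array left out *Txnip* ranged from -0.01 to 0.71 in 6-week db/db islets and from -0.23 to 0.68 in 6-week ob/ob islets, and *Arrdc4* from -0.35 to 0.96 in 6-week ob/ob islets and from -0.05 to 0.34 in 16-week ob/ob islets. The cause of these changes was not tested, and the fits with arrays left out also rest on fewer arrays.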
